A study of Mus musculus with 24 samples.

Results

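The Igf genes described here are Igf1, the receptors Igf1r and Igf2r, and the binding proteins Igfbp2, Igfbp3, Igfbp4, Igfbp5, Igfbp6 and Igfbp7. They were taken by name as 9 of the 22282 genes in the RNA sequencing tables, and all 9 averaged an FPKM of 1 or more, as did the 14964 genes that entered the tests. FPKM is fragments per kilobase of transcript, scaled per library, here by its upper quartile, so levels of different genes can be set side by side. The study converted cells of the amniotic fluid into endothelial cells (ECs) and measured 24 libraries, 3 from each of 8 groups of C57BL/6J mouse cells. MACs are amniotic cells cultured from embryos of E11.5 to E13.5. RACVECs are MACs given lentiviruses for the Ets factors Etv2, Erg and Fli1 and grown in EC medium, and the file of RACVEC 3 is headed with a later day than the methods give for the conversion. Akt-MACs and Akt-RACVECs also received a virus for myristoylated, constitutively active Akt, and Sox17-RACVECs are RACVECs that also received Sox17. Akt-LECs and Akt-liver ECs are lung and liver ECs that were cultured with the same Akt, and both groups together are called cultured ECs below. LSECs are liver ECs sorted directly from mice, with neither culture nor virus. The paper calls the lung ECs and the LSECs adult, whereas MACs and all cells made from them are embryonic. MAC cultures pool the embryos of a litter and were kept in a medium for amniotic cells, so differences between MACs and RACVECs cannot be told apart from the change of medium.

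Insulin-like growth factors are secreted ligands that signal growth and survival through Igf1r, a receptor tyrosine kinase that acts largely through the insulin receptor substrates, PI3K and Akt. Igf2r, the cation-independent mannose 6-phosphate receptor, takes Igf2 up for degradation and carries lysosomal enzymes, and is not a signalling kinase. Igfbp2 to Igfbp6 bind the ligands with high affinity outside the cell, prolong or limit their access to the receptor and are cut by proteases such as the pappalysins. Igfbp7 binds insulin-like growth factors only weakly and is a secreted protein of the vascular basement membrane.

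The upstream sequences of Igfbp2 and Igf2r are printed because these were the genes of the set called in the comparisons below. GGAA is marked because Ets factors, which bind this core, were transduced into RACVECs. With all libraries fitted, Igf2r was called only between groups that had not received them. Each is the 250 bases before the first annotated start in RefSeq (promoter table of GRCm38.p6), found by exact match in NCBIM37 (mm9), with GGAA and its reverse complement TTCC in capitals. Igfbp2 lies on chromosome 1 from 72871077 to 72899048 on the plus strand, and its upstream window is chr1:72870804-72871053. Igf2r lies on chromosome 17 from 12875272 to 12962530 on the minus strand, and its upstream window is chr17:12962573-12962822.
Igfbp2: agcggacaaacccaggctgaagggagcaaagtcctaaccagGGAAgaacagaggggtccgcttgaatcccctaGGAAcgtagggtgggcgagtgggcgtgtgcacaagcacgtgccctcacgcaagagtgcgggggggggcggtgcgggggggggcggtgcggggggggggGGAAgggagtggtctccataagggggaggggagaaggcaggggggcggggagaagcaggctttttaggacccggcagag
Igf2r: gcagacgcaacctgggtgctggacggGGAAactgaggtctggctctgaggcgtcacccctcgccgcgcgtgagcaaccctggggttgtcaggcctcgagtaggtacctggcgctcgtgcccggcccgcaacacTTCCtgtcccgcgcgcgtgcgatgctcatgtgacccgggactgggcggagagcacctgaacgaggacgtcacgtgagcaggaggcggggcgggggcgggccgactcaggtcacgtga
The Igfbp2 window holds 3 of these cores and the Igf2r window 2, on either strand. Of 32851 promoter windows of the same length, 93.4% hold at least 1. The longer Ets core CCGGAA (reverse complement TTCCGG, which contains the shorter one) is in 12% of all windows, and the Sox core AACAAT, or its reverse complement ATTGTT, in 9.42%. Neither stands in the Igfbp2 or the Igf2r window. Igfbp2 and Igfbp5 are neighbours, with 5457 bases between their annotated ends. Igfbp7, on chromosome 5 from 77778265 to 77837070, shares exon bases with Polr2b on the other strand, and reads of both cannot be told apart there since the counting is not stated to use strand. The antisense gene Airn overlaps Igf2r without a shared exon.

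Some libraries stood apart from their groups. A profile closest to a library of another group was common, and was found for every MAC, Akt-RACVEC and Akt-LEC library. In the library labelled Sox17-RACVEC 2, Etv2 was listed at 0 whereas the other Sox17-RACVECs had 458 and 378, and its profile was closest to Akt-RACVEC 3 (Pearson r = 0.970 over genes, against a mean of 0.873 with its own group). Sox17 itself was 5.09, 40.1 and 200.1 in the 3 Sox17-RACVECs and listed at 0 in all RACVECs. Akt1 averaged 1024 in Akt-RACVECs and 1041 in Sox17-RACVECs, for which no Akt virus is described, against 649 in RACVECs. Akt-LEC 1 and Akt-liver EC 1 had summed FPKM of 3660 and 2328 for 6 mesenchymal markers (collagens Col1a1, Col1a2 and Col3a1, Acta2, Tagln and Pdgfrb), against 16.8 to 92.6 in the other cultured ECs, and were closest to each other (r = 0.949). Their 5 macrophage markers summed to 1309 and 956, against 0 to 18.6 in the other cultured ECs. Most of these 2 sums was Lyz2, at 1225 and 777, with Adgre1 at 33.0 and 23.9 and Clec4f at 0 and 4.75. Sox17-RACVEC 1 had a sum of 916 and a Lyz2 of 916, with Adgre1 and Cd5l listed at 0. Their 6 hepatic stellate markers (Lrat, Reln, Des, Hand2, Ngfr and Colec11) summed to 448 and 291, against 0.15 to 137. The 6 endothelial markers were Cdh5, Pecam1, Kdr, Tek, Emcn and Egfl7. In MACs they summed to 51.5 to 83.4 and in RACVECs to 1876 to 3689. Each library of the other groups labelled as ECs had at least 4429. Egfl7 averaged 51.2 in MACs, against 1.32 for Cdh5 and 3.37 for Pecam1. In RACVECs Cdh5 averaged 1427, Egfl7 1294 and Pecam1 84.9. LSECs also carried 6 hepatocyte markers (2011 to 11322), 5 macrophage markers (10304 to 16652) and 5 red cell markers (12074 to 13901). The stellate markers summed to 193 to 245 in LSECs, and to 3870 in MAC 3 against 223 and 12.1 in MACs 1 and 2. In LSECs Colec11 averaged 126 and Lrat 55.2. Among MACs Ngfr averaged 976 and Hand2 261, and Lrat was listed at 0 in every library. Fewer cells of a type and less RNA per cell cannot be told apart in such bulk libraries.

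Igf1, the ligand, was the most uneven of the signalling genes. Its FPKM was 52.3, 48.75 and 126 in MACs 1, 2 and 3, and 8.67, 0.77 and 0.56 in RACVECs. All RACVECs were below all MACs, a log2 fold change of -4.54 (SE, the standard error, 1.42, adjusted p = 0.0909 by limma). A gene was called when its adjusted p was below 0.05 and the change past 1 or -1, and Igf1 was not. In Akt-RACVECs it was 82.0, 39.6 and 248, above every RACVEC library, with a log2 fold change of 4.98 (SE 1.42, adjusted p = 0.103). Without the library labelled Sox17-RACVEC 2, which enters only the shared spread, the adjusted p was 0.0284 for the first and 0.0224 for the second of these comparisons. Akt-MACs had 13.15, 101 and 317, with MACs inside that range. Akt effects are here the changes from RACVECs to Akt-RACVECs and from MACs to Akt-MACs. The first minus the second was 4.83 on the log2 scale (SE 2.00, adjusted p = 0.328). Akt-MACs also gained macrophage markers, given below, so Akt and cell content cannot be told apart in the second. Sox17-RACVECs held 1.56, 117 and 0.31, where the high value is that of the library with Etv2 at 0. Among the liver cells Igf1 was 137, 86.5 and 109.7 in LSECs and 12.1, 2.55 and 31.9 in Akt-liver ECs, which did not overlap (log2 fold change -3.26, SE 1.42, adjusted p = 0.0833). Akt-LECs were at 11.15, 103 and 13.4. The group means on the log2 scale ran from LSECs through Akt-RACVECs, Akt-MACs, MACs, Akt-LECs, Akt-liver ECs and Sox17-RACVECs down to RACVECs, and no neighbours in this order were further apart than the larger of their SDs.

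Macrophage markers were high in some of the libraries with much Igf1, which macrophages are known to secrete. In Akt-MACs 1, 2 and 3 the macrophage markers summed to 811, 10904 and 35489, in the same order as Igf1, and Adgre1 (F4/80) was 56.6, 1648 and 4105. In MACs these sums were 0.79 to 14.7 and Adgre1 was listed at 0, with Igf1 at 48.75 or above. Akt-RACVECs had sums of 5.35 to 153, and the library with the highest Igf1 had the lowest sum. LSECs carried hepatocyte markers (2011 to 11322) as well as macrophage markers (10304 to 16652). The part of macrophages in the Igf1 of Akt-MACs, and of macrophages or hepatocytes in that of LSECs, was not tested.

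**Figure D1:**
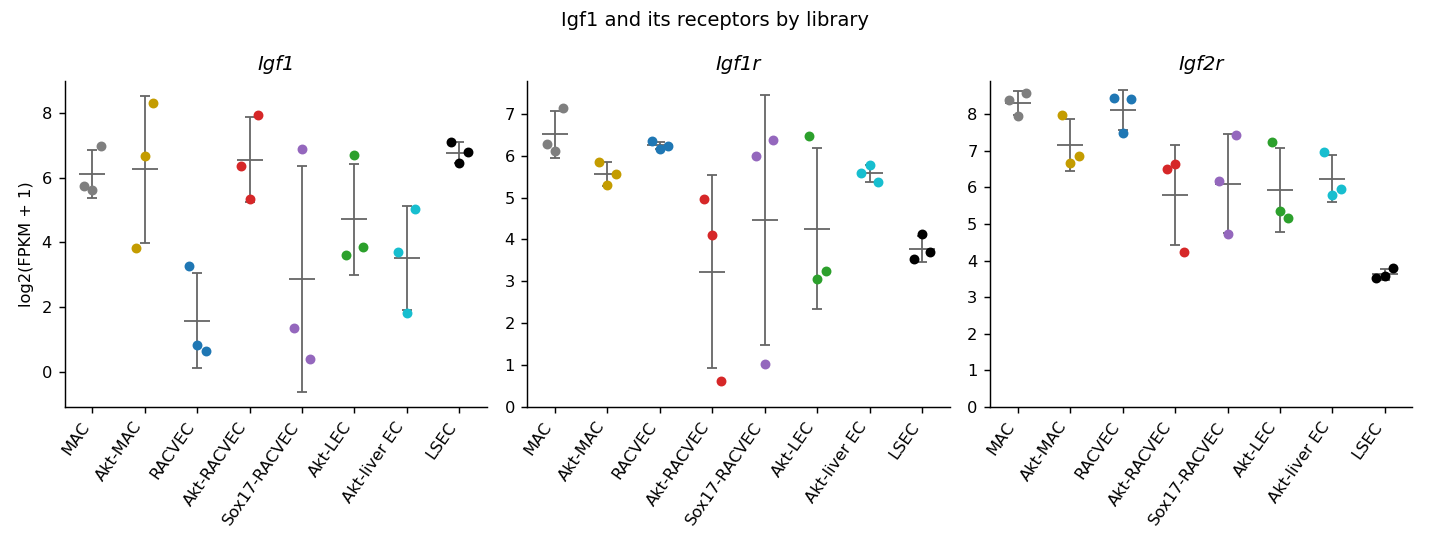
Levels of Igf1, Igf1r and Igf2r as log2(FPKM + 1) in the 24 libraries by group. Points are libraries, horizontal bars the mean and whiskers the SD of 3 libraries. Igf1 in the 3 RACVECs lies under that in every Akt-RACVEC, whereas both receptors show the opposite order.

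The 4 annotated Igf1 transcripts were apportioned unevenly between libraries. Where the summed Igf1 was at least 5, at least 96.3% of it was given to 2 of the 4 transcripts, but the pair differed. In 9 libraries, among them Akt-MAC 2 and 3 and LSEC 2 and 3, it was 1 pair, in 5 libraries with MAC 3 and Akt-RACVEC 1 and 3 another, and in 5 with MAC 1 and 2 and LSEC 1 the last. The other 5 libraries had a sum below 5. Since the pair also differed within LSECs, whose Igf1 sums were alike, the sum is used here. With the most abundant transcript alone, the log2 fold changes of Igf1 were -1.43 for RACVECs against MACs (adjusted p = 0.785), -1.34 for Akt-liver ECs against LSECs (adjusted p = 0.673) and 2.91 for the difference between the Akt effects (adjusted p = 0.761). Akt-RACVECs stayed above RACVECs, as that transcript was 50.9, 29.6 and 212 in the former and 5.75, 0.2 and 0.16 in the latter.

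Igf1r, the signalling receptor, was similar in MACs (76.9, 68.4 and 141) and RACVECs (80.3, 70.7 and 74.9). The log2 fold change of -0.27 had a 95% interval from -2.70 to 2.17. In Akt-RACVECs it was 30.2, 16.2 and 0.52, under every RACVEC library but not called (log2 fold change -3.03, SE 1.16, adjusted p = 0.212). Without Akt-RACVEC 3 the change was -1.72 (adjusted p = 0.590). Akt-MACs at 57.3, 38.2 and 46.6 were also all under the MACs, by a log2 fold change of -0.94 (SE 1.16, adjusted p = 0.837). The difference between these Akt effects was -2.09 (95% interval -5.53 to 1.36). Sox17-RACVECs 1 and 3 had 62.8 and 81.8, whereas the library labelled Sox17-RACVEC 2 had 1.02, close to the 0.52 of Akt-RACVEC 3. In Akt-LECs the receptor was at 88.0, 7.26 and 8.53, with the high value in Akt-LEC 1, the library with mesenchymal and macrophage markers. Akt-liver ECs had 47.5, 54.2 and 40.5, all above the LSECs at 10.5, 16.4 and 11.9, and their difference was not called (log2 fold change 1.81, SE 1.16, adjusted p = 0.245). In the order of the groups only RACVECs and Akt-liver ECs were neighbours set apart by more than the larger SD.

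Igf2r, the clearance receptor, was higher than Igf1r in 22 of the 24 libraries, the exceptions being LSEC 1 and LSEC 2. It was 337, 247 and 382 in MACs and 349, 181 and 339 in RACVECs, which overlapped (log2 fold change -0.19, 95% interval -1.62 to 1.24). Cultured ECs were all lower than MACs, with 151, 40.35 and 34.6 in Akt-LECs and 124, 54.25 and 61.2 in Akt-liver ECs. The mean of the cultured ECs differed from MACs by a log2 fold change of -2.23 (SE 0.59, adjusted p = 0.0138), and Igf2r was called lower. The adjusted p was 0.0549 without MAC 1 and 0.0537 without MAC 3. LSECs were lowest, at 10.4, 10.8 and 12.9. Against them Igf2r was called higher in Akt-liver ECs, with a log2 fold change of 2.62 (SE 0.68, adjusted p = 0.00634) that held without each single library, but not by the criterion of the study's methods. Akt-RACVECs at 90.0, 99.7 and 17.8 lay under all RACVECs (log2 fold change -2.33, SE 0.68, adjusted p = 0.109), and without Akt-RACVEC 3 the change was -1.54 (adjusted p = 0.349). Sox17-RACVECs at 70.8, 25.4 and 172 did too, though 172 was close to the 181 of RACVEC 2 (log2 fold change -2.01, SE 0.68, adjusted p = 0.552). Without the library labelled Sox17-RACVEC 2 this change was -1.32. RACVECs were above all cultured ECs, by a log2 fold change of 2.04 (SE 0.59, adjusted p = 0.0825). With Akt-LEC 1 and Akt-liver EC 1 left out, the change was 2.55 and was called (adjusted p = 0.0181). MACs and RACVECs carried no added Akt and came from embryos. Akt, cell type and donor age therefore cannot be told apart in their comparisons with cultured ECs. Akt-MACs had 252, 100 and 116.

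The receptors were also set beside the mesenchymal markers. Igf1r and Igf2r had a Pearson r of 0.787 over the 24 libraries, the highest of any pair of the 9 genes. The 6 mesenchymal markers summed to 2636 to 7541 in MACs, 940.4 to 5417 in RACVECs and 6.04 to 331 in Akt-RACVECs. Akt-MACs had 3177, 1943 and 8870, the last the highest of all libraries, with an Igf1r of 46.6 and an Igf2r of 116 that were close to the medians of all libraries (47.1 and 99.8). They were lowest in Akt-RACVEC 3 and in the library labelled Sox17-RACVEC 2 (7.59), the libraries with the least Igf1r. Akt-liver ECs 2 and 3, with sums of 76.8 and 47.1, still had an Igf1r of 54.2 and 40.5. The part of mesenchymal cells or programmes in the receptor levels was not tested.

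**Figure D2:**
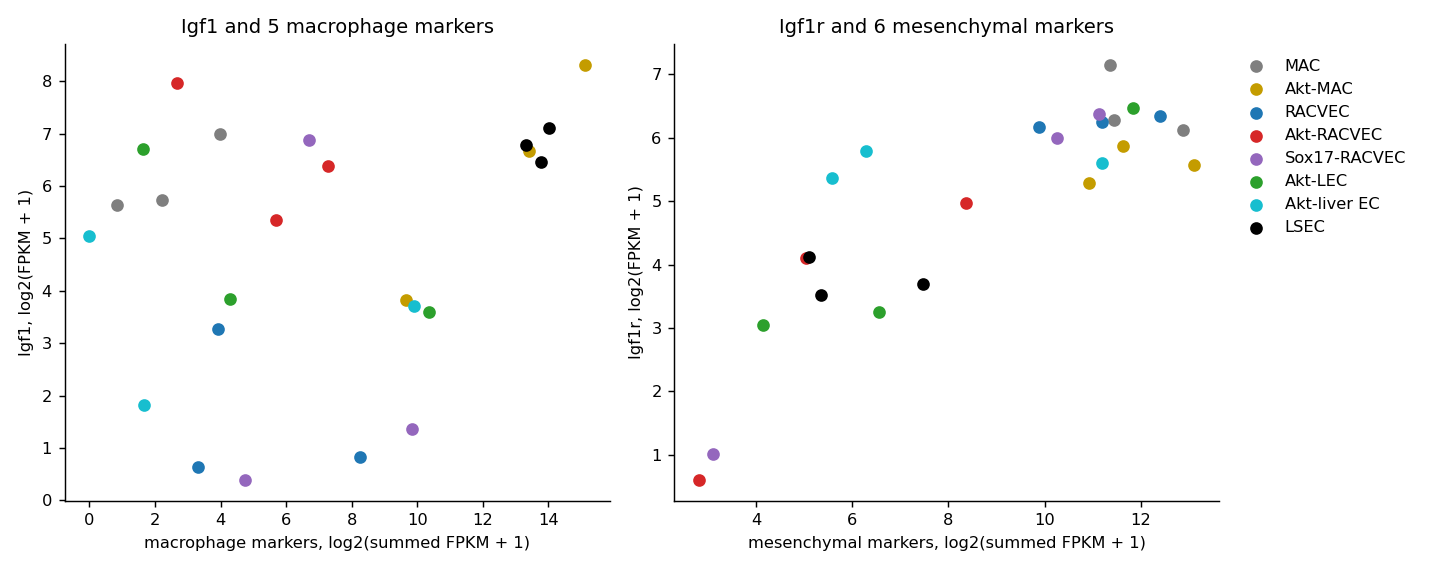
Left, Igf1 against the summed FPKM of 5 macrophage markers, and right, Igf1r against the summed FPKM of 6 mesenchymal markers, all as log2(value + 1), 1 point per library and colours for groups. The 3 LSECs and Akt-MAC 2 and 3 hold the highest macrophage sums, and the libraries with Igf1r of 0.52 and 1.02 hold the lowest mesenchymal sums.

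Igfbp2, a binding protein common in fetal tissues, differed most between the groups. Its FPKM was 90.7, 12.3 and 137 in MACs. Akt-MACs held 509, 4378 and 1654, all above the MACs. In RACVECs it was 1.62 in RACVEC 1 and listed at 0 in the other two. In Akt-RACVECs it was 3.80 in 1 library and listed at 0 in the rest, and all 3 Sox17-RACVECs were listed at 0. The cultured ECs were listed at 0 except for 10.1 in Akt-LEC 1 and 15.4 in Akt-liver EC 1, both with mesenchymal and macrophage markers. LSECs had 9.41, 6.91 and 39.1, the last in the library with the highest hepatocyte sum. The gene was thus at 0 in 11 of the 24 libraries, and the sizes of its fold changes depend on the pseudocount of 1.

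Of the 9 genes, Igfbp2 was the 1 called between RACVECs and MACs, where it was lower with a log2 fold change of -5.32 (SE 1.19, adjusted p = 0.0183). Of all genes tested, 2.71% were called in this comparison. The call was lost without MAC 1, MAC 3, RACVEC 2 or RACVEC 3 (adjusted p from 0.0738 to 0.0819). Igfbp2 was also the 1 gene called between Akt-MACs and MACs, where it was higher with a log2 fold change of 4.81 (SE 1.19, adjusted p = 0.0343), against 2.81% of all genes. That call was lost without MAC 1, MAC 2, Akt-MAC 2 or Akt-MAC 3 (adjusted p from 0.0607 to 0.189). The macrophage markers Adgre1, Cd5l, Csf1r and Lyz2 were called higher in the same comparison, by 6.80 to 10.1 on the log2 scale. Clec4f, the remaining marker of that list, was listed at 0 in all MACs and Akt-MACs. The part of macrophages in the Igfbp2 change was not tested. In cultured ECs Igfbp2 was called lower than in MACs (log2 fold change -4.54, SE 1.03, adjusted p = 0.00562), although Akt-liver EC 1 was above MAC 2. These comparisons share the MAC libraries. Fitted with only the groups compared, Igfbp2 kept the same changes but was not called in RACVECs (adjusted p = 0.0814), Akt-MACs (0.431) or cultured ECs (0.0573) against MACs, nor did it pass the unadjusted criterion of the study's methods. The difference between the Akt effects in RACVECs and MACs was -4.52 (SE 1.68, adjusted p = 0.270). Between Akt-liver ECs and LSECs the log2 fold change was -2.55 (adjusted p = 0.106), and without Akt-liver EC 1 it was -3.90 and called (adjusted p = 0.0167).

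**Figure D3:**
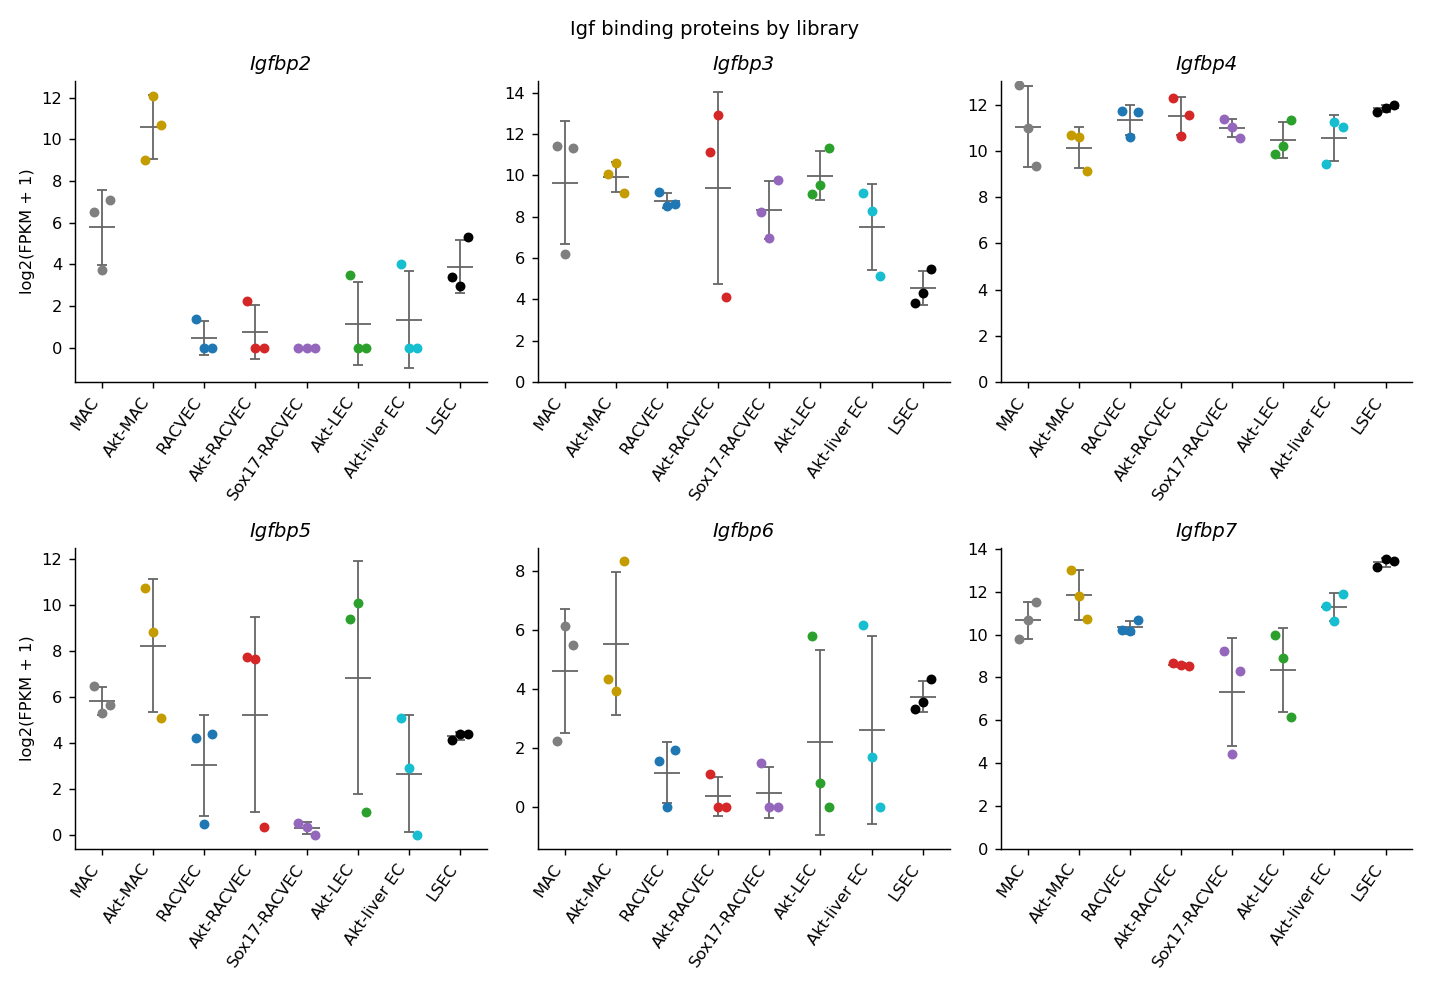
Levels of the 6 binding proteins as log2(FPKM + 1) by group, with points for libraries, horizontal bars for the mean and whiskers for the SD of 3 libraries. Igfbp2 is at or near 0 in most RACVEC and cultured EC libraries and highest in Akt-MACs, Igfbp4 is high in every library, and Igfbp7 is highest in LSECs.

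Igfbp3, the main carrier in serum, spanned 13.3 to 7691 and was called in no comparison. MACs had 2745, 72.7 and 2534, so that MAC 2 alone was low. It was 1059, 1543 and 565 in Akt-MACs. RACVECs were even, at 573, 361 and 390.4. Akt-RACVECs held both extremes outside the LSECs, with 2254, 7691 and 16.2. In Sox17-RACVECs the values were 296, 125 and 864. Akt-LECs had 542, 733 and 2551, and Akt-liver ECs 555, 303 and 33.8. LSECs were lowest as a group, at 13.3, 18.9 and 42.35, and Akt-liver EC 3 lay within their range (log2 fold change of Akt-liver ECs against LSECs 2.97, SE 1.69, adjusted p = 0.188).

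Igfbp4, a binding protein that is cleaved by pappalysin, was the steadiest. It was between 556 and 7407 in every library, with a median of 2130 and an SD of 0.94 on the log2 scale over the 24 libraries, the lowest of the 9 genes. MACs spanned most of the range, with 7407, 2024 and 660.1. RACVECs had 3397, 1561 and 3328, Akt-RACVECs 5066, 1633 and 3054, and Sox17-RACVECs 2672, 2126 and 1538. No neighbours in the order of the groups differed by more than the larger SD. LSECs at 3334, 3742 and 4087 were all above the Akt-liver ECs at 696, 2454 and 2134, with a log2 fold change of -1.27 (SE 0.71, adjusted p = 0.177).

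Igfbp5, a binding protein that attaches to extracellular matrix, varied widely between libraries of the same group. Akt-MACs held 1723, 454 and 32.5, and Akt-LECs 671, 1089 and 0.98. In Akt-RACVECs it was 211, 198 and 0.26. MACs had 87.5, 38.0 and 49.8, above RACVECs at 17.5, 0.40 and 19.8 in each library (log2 fold change -2.78, SE 2.15, adjusted p = 0.508). Sox17-RACVECs were all under 0.5. LSECs were even, at 16.3, 20 and 19.9, and Akt-liver ECs had 32.9, 6.50 and 0. Igfbp5 was called in no comparison.

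Igfbp6, which prefers Igf2 as a ligand, was the lowest binding protein by its mean FPKM and was listed at 0 in 7 libraries. It was 3.70, 68.8 and 43.8 in MACs and 19.2, 14.5 and 319.9 in Akt-MACs. In the 9 libraries of the RACVEC groups it did not pass 2.89. All RACVECs were under all MACs, but the change was not called (log2 fold change -3.44, SE 1.55, adjusted p = 0.227). Cultured ECs had 54.2 in Akt-LEC 1 and 70.6 in Akt-liver EC 1, the 2 libraries with mesenchymal and macrophage markers, and at most 2.23 in the other 4. With these 2 left out Igfbp6 was called lower in cultured ECs than in MACs (log2 fold change -3.99, adjusted p = 0.0104), against -2.20 with them (adjusted p = 0.255). The latter was -3.39 without MAC 1 and -1.45 without MAC 2. LSECs had 9.08, 10.98 and 19.3.

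Igfbp7, the matrix protein of vessels, was highest in LSECs, at 9105, 12049.7 and 11279. These were above every other library, and the step to Akt-MACs, the next group, was 1.54 on the log2 scale against a larger SD of 1.16. It was 2555, 1566 and 3826 in Akt-liver ECs, all under the LSECs (log2 fold change -2.11, SE 0.98, adjusted p = 0.103). MACs had 878, 1659.7 and 2939 and RACVECs 1183, 1132.5 and 1651, which overlapped. The 3 Akt-RACVECs were close together at 407, 383 and 364, under every RACVEC library (log2 fold change -1.76, SE 0.98, adjusted p = 0.390). In a fit of these 2 groups alone the adjusted p was 0.0415, with the same change. Sox17-RACVECs were also under every RACVEC library, at 594, 20.5 and 316 (log2 fold change -3.03, SE 0.98, adjusted p = 0.510), and without the library labelled Sox17-RACVEC 2 the change was -1.59. Akt-LECs at 1002, 484 and 69.3 were all under the Akt-liver ECs, with a log2 fold change of -2.94 (SE 0.98, adjusted p = 1) that was -1.83 without Akt-LEC 3. Akt-MACs held 8335, 3558 and 1680.1.

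The binding proteins together changed places as the leading transcript. Their summed FPKM was between 2272 and 15848, and Igfbp4 was the highest of them in 13 libraries, Igfbp7 in 9, Igfbp2 in Akt-MAC 2 and Igfbp3 in Akt-RACVEC 2. Igfbp4 made up 65.7%, 51.1% and 61.7% of the sum in RACVECs 1, 2 and 3. In Sox17-RACVECs its share was 75.0%, 93.6% and 56.6%. Akt-RACVECs had 63.8%, 16.5% and 88.9%, since Igfbp3 was 77.7% in Akt-RACVEC 2. LSECs were alike, with 72.9%, 76.0% and 72.8% as Igfbp7. In Akt-MACs Igfbp7 was 62.7%, 30.8% and 34.9% and Igfbp2 3.83%, 38.0% and 34.4%. Igfbp5 reached 20.8% and 31.2% in Akt-LECs 1 and 2 and 0.019% in Akt-LEC 3. The counting error of these shares could not be estimated, because numbers of reads are unknown.

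**Figure D4:**
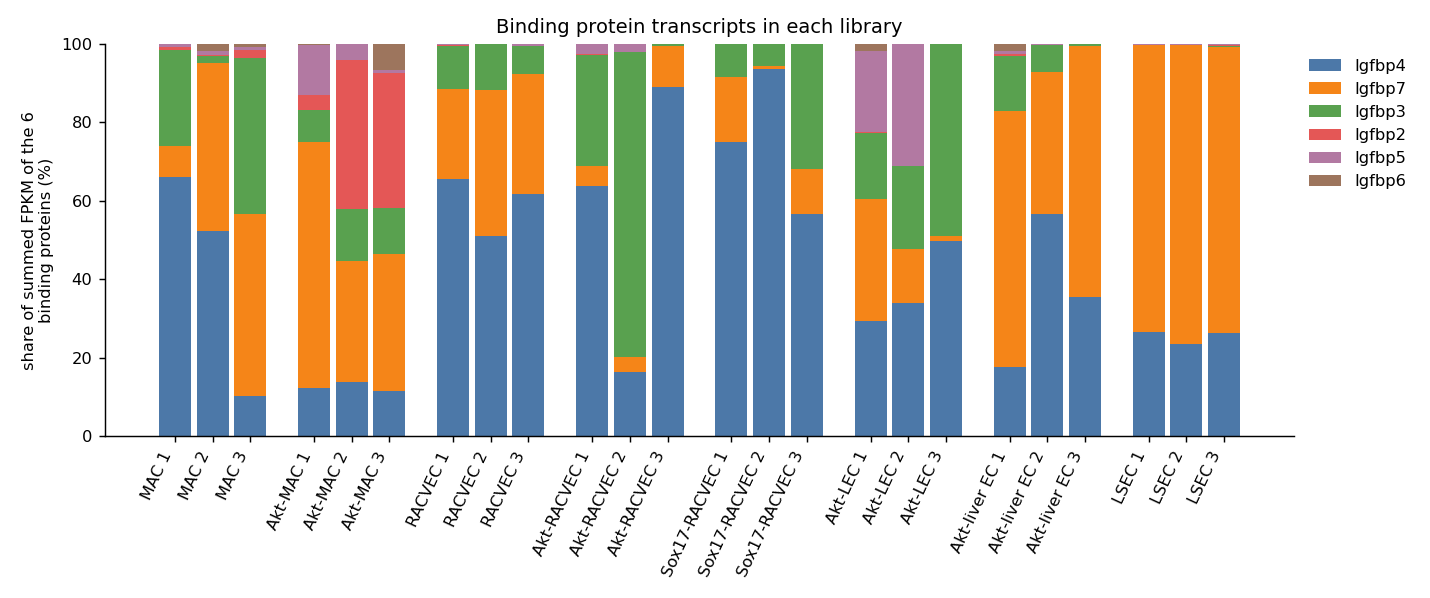
Share of each binding protein in the summed FPKM of the 6, in percent, 1 stacked bar per library and libraries ordered by group. Igfbp4 leads all RACVEC and Sox17-RACVEC bars, Igfbp7 all LSEC bars, and Igfbp2 passes 2% only in Akt-MACs and MAC 3.

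Set over the 8 groups, 5 of the 9 genes differed by limma's F test: Igf2r (adjusted p = 0.000419), Igfbp2 (9.21e-06), Igfbp7 (0.000712), Igf1 (0.0231) and Igfbp6 (0.0481). Of all genes tested, 54.0% passed the same test, so the share of the Igf genes was close to that of other genes. Without RACVEC 2, or without RACVEC 3, Igf1 and Igfbp6 no longer passed and 3 genes were left. Igfbp5 (0.0648), Igfbp3 (0.106), Igf1r (0.133) and Igfbp4 (0.35) did not pass.

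The contrasts around RACVECs called few of the 9 genes. RACVECs and MACs did not overlap for Igf1, Igfbp2, Igfbp5 and Igfbp6, all lower in RACVECs, whereas 22.0% of all genes had no overlap. Igf1, Igfbp2 and Igfbp6 passed an unadjusted p below 0.05 with a log2 change past 1, as did 12.6% of all genes. The median log2 fold change was -0.89 over the 9 genes and 0 over all genes tested. Between Akt-MACs and MACs Igfbp2 alone passed this threshold (9.72% of all genes), and Igfbp2 and Igf1r did not overlap (14.9% of all genes). Between Akt-RACVECs and RACVECs limma called 0 of the 9, with 0.261% of all genes called. At the unadjusted threshold there were 3, Igf1 higher and Igf1r and Igf2r lower, where 10% of all genes passed, and with Igfbp7 there were 4 without overlap, against 19.8% of all genes. The criterion of the study's methods, unadjusted with unequal variances on FPKM, took 3 genes, Igf1r, Igf2r and Igfbp7, and 3.43% of all genes. Between Sox17-RACVECs and RACVECs limma also called 0, with 0.00668% of all genes called. At the unadjusted threshold, which 4.70% of all genes passed, there were 2, Igf2r and Igfbp7, the same 2 as by the criterion of the study's methods (0.982% of all genes) and the only ones without overlap, where 10.6% of all genes had none. Both were lower in Sox17-RACVECs and in Akt-RACVECs than in RACVECs, comparisons that share the RACVEC libraries. For the difference between the Akt effects in RACVECs and MACs limma called 0 of the 9 and 0.1% of all genes, with 3 at the unadjusted threshold, Igf1, Igfbp2 and Igfbp7, against 10.1% of all genes.

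**Figure D5:**
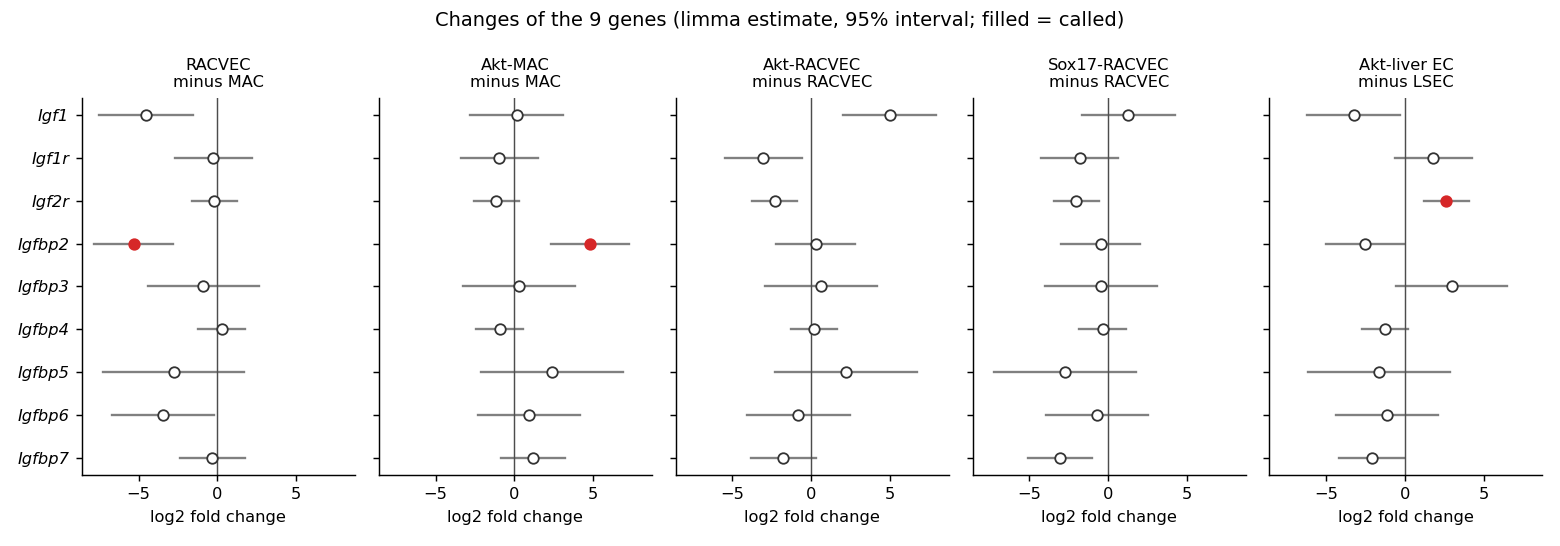
Log2 fold changes of the 9 genes in 5 comparisons as estimated by limma on log2(FPKM + 1), with 95% intervals and filled points for called genes. Igfbp2 is filled in RACVECs and in Akt-MACs, each against MACs, and Igf2r in Akt-liver ECs against LSECs.

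The cultured ECs were set against MACs, RACVECs and Akt-RACVECs. All cultured ECs carried the added Akt and came from lung or liver, whereas MACs and RACVECs carried none and came from amniotic fluid. MACs and all RACVEC groups came from embryos, whereas the paper calls the lung ECs adult. Cell type, Akt, tissue of origin and donor age therefore cannot be told apart in the comparisons with MACs and RACVECs. Neither can the medium in that with MACs, nor cell type, donor age and tissue of origin in that with Akt-RACVECs. From MACs to cultured ECs 2 of the 9 genes were called, Igf2r and Igfbp2, both lower, with 14.8% of all genes called and all 9 estimates negative (median -1.60, against 0.026 over all genes). The same 2 passed the unadjusted threshold (21.5% of all genes), and Igf2r did not overlap (18.3% of all genes). Between RACVECs and cultured ECs limma called 0, with 1.88% of all genes called, and 1 gene, Igf2r, passed at the unadjusted threshold (10% of all genes) and by the criterion of the study's methods (4.87%), and it alone did not overlap (7.86% of all genes). Between Akt-RACVECs and cultured ECs it called 0, with 0.448% of all genes called, and none passed at the unadjusted threshold (7.12% of all genes) or by that criterion (3.09%), and all 9 overlapped, where 5.87% of all genes did not. The intervals were wide: for Igf1 the log2 difference of Akt-RACVECs from cultured ECs was 2.44 (95% interval -0.13 to 5.01). Between Akt-LECs and Akt-liver ECs limma called 0, with 0.0134% of all genes called, 1 gene, Igfbp7, at the unadjusted threshold that 2.79% of all genes passed, and 0 by the criterion (0.548%). Igfbp7 did not overlap between them, like 7.16% of all genes. Akt-liver ECs differed from LSECs in 1 called gene, Igf2r, with 27.0% of all genes called, and 4 passed the unadjusted threshold, Igf1, Igf2r, Igfbp2 and Igfbp7, against 31.2%. In this comparison 5 genes did not overlap, Igf1, Igfbp4 and Igfbp7 lower and both receptors higher, against 52.6% of all genes. Culture and Akt cannot be told apart there, since LSECs had neither, and the hepatocyte, macrophage and red cell markers of LSECs were at sums of at most 52.4, 956 and 1.07 in Akt-liver ECs. The stellate markers summed to 12.2 to 291 in Akt-liver ECs, with Lrat and Colec11 called lower than in LSECs and the rest of that list not called. The part of these other cell types in the differences was not tested.

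Of 17 other genes of the pathway, 15 were tested. Between Akt-liver ECs and LSECs 5 of the 15 were called, where 27.0% of all genes were. Igf2, the second ligand, ranged from 4.10 to 7980 among the RACVECs alone, at 7980, 4.10 and 2813. It was called in Akt-liver ECs (390.1, 229.5 and 1054), where it was higher than in LSECs (2.00, 1.45 and 2.66) with a log2 fold change of 7.25 (SE 2.06, adjusted p = 0.0108). In the same comparison 3 more were called higher. These were Grb10, an adaptor that restrains Igf1r signalling (1.82, adjusted p = 0.00501), Igf2bp2, which binds Igf2 mRNA (3.17, adjusted p = 0.00033), and Stc1, whose protein stanniocalcin inhibits pappalysins (5.06, adjusted p = 0.0216). Igfals, the acid-labile subunit that the liver secretes, was called lower (-2.42, adjusted p = 0.0111), with 3.06, 3.01 and 16.7 in LSECs and 0.88, 0 and 0 in Akt-liver ECs. From MACs to cultured ECs 4 of the 15 were called, all lower, where 14.8% of all genes were called. They were the receptor substrates Irs1 (-3.96, adjusted p = 0.00113) and Irs2 (-3.45, adjusted p = 0.0358), Igf2bp3 (-3.06, adjusted p = 0.0260) and Htra1, a protease of the binding proteins (-4.08, adjusted p = 0.0468). In the other 8 comparisons none of the 15 was called, with 0 to 5 of them at the unadjusted threshold in each. Of all genes, 0.00668% to 2.81% were called and 2.79% to 12.6% passed the unadjusted threshold in these comparisons. Irs1 was 39.7, 42.3 and 30.1 in MACs and 7.31, 7.47 and 16.3 in RACVECs. In Akt-RACVECs it was 1.2, 0 and 0. Insr, the insulin receptor, lay between 19.7 and 73.8 in all 24 libraries. Igfbp1, a binding protein of hepatocytes, was listed at 0 except for 1.25 in LSEC 2 and 17.1 in LSEC 3, the library with the highest hepatocyte sum.

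Among 11699 genes whose FPKM averaged 10 or more, the genes most like each member were found by the Pearson r of log2(FPKM + 1) over the 24 libraries, as a description of libraries that share groups and normalization. For Igf1r they were Efemp2 (r = 0.941), Gpc4 (0.935) and Snhg18 (0.926). Arhgef17 (0.946), Slc20a2 (0.932) and Ptges (0.931) were most like Igf2r. With Igfbp2 went Ppfibp2 (0.935), Fmod (0.930) and Rassf4 (0.922). Desmin, Des, a muscle filament and stellate cell marker, was first for Igfbp6 (0.899), before Stbd1 (0.872) and Jph2 (0.857). Igfbp7 had Tmem50a (0.868), Gstk1 (0.862) and Chchd7 (0.837). The best for Igf1 were Atp6v0b (0.811), Hectd3 (0.806) and Mlx (0.796), and for Igfbp3 Rab6a (0.832), Apbb1 (0.793) and Cxcl5 (0.785). Igfbp5 had Lemd3 (0.775), Phactr1 (0.765) and Tmem100 (0.724). Igfbp4, the steadiest gene, had the weakest partners, with Fahd1 (0.677), Slc66a2 (0.670) and Mpp1 (0.647).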

How the data were processed

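RNA of 24 libraries was sequenced by the authors as paired reads of 51 bases from TruSeq libraries and mapped with TopHat to mm9. The authors deposited FPKM per RefSeq transcript, made by Cufflinks with its upper-quartile and sequence-bias options. Versions and read numbers are not given in the sources used here, so depth and counting error are unknown and a value of 0 sets no limit. Per the study's methods a replicate is an independently isolated culture.

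The 27583 transcripts were summed by current symbol (653 had none), giving 22282 genes. In R 4.3.3, limma 3.58.1 was fitted to log2(FPKM + 1) over all 8 groups with a trend, and two-sided p were adjusted by Benjamini-Hochberg over the 14964 genes whose FPKM averaged 1 or more. Calls needed an adjusted p under 0.05 with a log2 change beyond 1 either way. The procedure was tested on simulated data. Fold changes on this scale understate changes of low genes. Alternatives were pseudocounts of 0.1 and 10, other filters, a fit of only the compared groups, median scaling, the replicate block, the most abundant transcript, the criterion of the study's methods and leaving out each library. Leaving out Akt-LEC 1 with Akt-liver EC 1, and blocks named in file headers, were added after seeing the data. All members are named, with fold changes and p for called members or where a result turns on one, and the 3 genes most like each. The members and lists were chosen with earlier results of these data known. Summaries were made in Python 3.11.15 (pandas 2.3.3, numpy 2.4.6) and plots in matplotlib 3.10.9.

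Libraries with the same number deviated together in no comparison throughout (correlations of deviations from the group means between -0.200 and 0.571), so the numbers were not taken as pairs. The file headers link MAC 2 with RACVEC 1 and MAC 3 with RACVEC 2, so these libraries may not be independent, and the reported fit leaves this out. With these links as a block, 472 of all genes were called between RACVECs and MACs, in place of 405. Summed FPKM was 1689486 to 2317294 per library, and 0 pairs of libraries were identical.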

Additional observations from a re-analysis of the deposited data

How the results depend on the processing

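Of the 9 genes, the number called changed as follows. In a fit of only the groups compared it was 0 for RACVECs against MACs, 0 for Akt-MACs against MACs, 1 for Akt-RACVECs against RACVECs (Igfbp7), 1 for cultured ECs against MACs (Igf2r) and 4 for Akt-liver ECs against LSECs (Igf1, Igf1r, Igf2r and Igfbp7). By the criterion of the study's methods it was 0, 0, 3, 1 and 3 in the same order, 2 for Sox17-RACVECs against RACVECs and 1 for RACVECs against cultured ECs. Of all genes tested, the first setting called 70, 1, 64, 1204 and 4507 in these 5 comparisons, and the criterion 420, 155, 513, 1455 and 2707, then 147 and 729. With a pseudocount of 0.1 it was 0 for Akt-MACs against MACs. Without Akt-LEC 1 and Akt-liver EC 1 it was 1 for RACVECs against cultured ECs and 2 for Akt-liver ECs against LSECs (Igf2r and Igfbp2). Leaving out single libraries gave 0 to 2 for RACVECs against MACs, 0 to 1 for Akt-MACs against MACs, 0 to 1 for Akt-RACVECs against RACVECs, 1 to 2 for cultured ECs against MACs, 0 to 1 for RACVECs against cultured ECs, 1 to 3 for Akt-liver ECs against LSECs and 3 to 6 for the F test. The library labelled Sox17-RACVEC 2 alone moved 4 of these counts. Elsewhere single omissions left 0 called, and no named fold change reversed under any setting run. The causes were not tested. With the replicate number as a block the counts of members called were those reported (1 for RACVECs against MACs and 5 by the F test), while 142 of all genes were called between Akt-RACVECs and RACVECs in place of 39. Unknown depth limits the genes listed at 0, above all Igfbp2 and Igfbp6.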
